A study of Rattus norvegicus with 9 samples.

Results

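Interferon-stimulated genes were followed in the left tibias of 9 rats as a named group of 36 genes, from secreted and antiviral effectors to RNA sensors, transcription factors and antigen-processing genes. All 36 of them were found among the 22589 genes listed in the count files (Xaf1 only as XAF1), and all 36 passed the filter on low counts that left 14520 genes for testing. The members are known interferon targets that were selected on earlier results of these same 9 libraries, namely a high level of interferon response genes in NE/Ovx rat 6. Their levels in that rat and the comparisons that include it are therefore given as a description. RNA-seq compared 3 groups of 3 female Sprague-Dawley rats: a Sham group, from which a small piece of fat beside the ovary was removed, an NE/Ovx group with bilateral ovariectomy and no exercise, and an RE/Ovx group with bilateral ovariectomy and resistance exercise. The rats were 9 weeks old when bought, were operated on at 10 weeks after 1 week of acclimatization, and had their bones taken 24 weeks after the operation, at 34 weeks of age. The RE/Ovx rats had 2 weeks of adaptive training and then 12 weeks of climbing a ladder with a load on the tail that reached 100% of body weight. No drug or allele separates the groups, all 9 rats had an operation, and the labels name the rats by number (Sham rats 12, 7 and 8, NE/Ovx rats 6, 8 and 9, RE/Ovx rats 3, 5 and 8).

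Interferons are cytokines that a cell secretes when its sensors meet viral or misplaced nucleic acid. Type I interferons bind a receptor of the chains IFNAR1 and IFNAR2, whose kinases JAK1 and TYK2 phosphorylate STAT proteins such as STAT2. STAT2 and IRF9 are parts of a complex that binds the interferon-stimulated response element (ISRE) in the promoters of its target genes, whereas interferon gamma acts mainly through another element, GAS. Many of the targets are parts of the pathway themselves, such as IRF7, STAT2 and the RNA sensors, and USP18 and the SOCS proteins restrain it. In bone, interferon signalling is known as a brake on the formation of osteoclasts from their marrow precursors.

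Each rat had 12297992 to 16671533 counted reads, with 13568808 in NE/Ovx rat 6 and TMM factors of 0.962 to 1.04. The unit of level is CPM (counts over the TMM-adjusted library size), and comparisons between genes use the authors' FPKM, which also divides by gene length. Muscle and tendon were taken off the bones before RNA extraction, but skeletal muscle markers still summed to 5542 to 18484 CPM. Markers of osteoblasts and osteocytes were present in all rats with a summed level of 6390 to 28254 CPM, below the muscle sum in some of them (6390 against 16567 CPM in Sham rat 12), and neutrophil and erythroid markers of marrow and blood were present in all rats too. In such bulk samples, fewer cells of a type and less RNA per cell cannot be told apart. Groups of 3 limit an exact permutation p to 0.1 or more, so p-values are from edgeR's quasi-likelihood test over all 14520 genes, and a called gene is one with a Benjamini-Hochberg adjusted p under 0.05. In NE/Ovx against Sham 178 genes were called, in RE/Ovx against Sham 1171 and in RE/Ovx against NE/Ovx 0, where 767 genes had an unadjusted p under 0.05 in edgeR and DESeq2 called 5.

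Promoters of 5 members are shown first because they carry the element that names the group. RefSeq windows of the build GRCr8 (300 bases, from 250 before the start site to 50 after it) were at hand for 25 of the 36 members, the others being Isg15, Usp18, Ifit1, Ifit2, Oas1k, Oas2, Mx2, Ddx58, Dhx58, Zbp1 and Rtp4. The 250 bases before the start are printed 5′ to 3′ on the strand of the gene, with a match to the ISRE letters (GAAA, any 2 bases and GAAA again, on either strand), in capitals. The files themselves use Rnor_6.0, so these coordinates belong to GRCr8 only. Oas1a (chromosome 12, plus strand, chr12:41330216-41330465), Ifit3 (chromosome 1, plus strand, chr1:241527076-241527325), Irf7 (chromosome 1, minus strand, chr1:205800024-205800273) and Bst2 (chromosome 16, minus strand, chr16:18254968-18255217) were among the members that stood far higher in 1 rat, and Rsad2 (chromosome 6, minus strand, chr6:48788121-48788370) was not.
Oas1a: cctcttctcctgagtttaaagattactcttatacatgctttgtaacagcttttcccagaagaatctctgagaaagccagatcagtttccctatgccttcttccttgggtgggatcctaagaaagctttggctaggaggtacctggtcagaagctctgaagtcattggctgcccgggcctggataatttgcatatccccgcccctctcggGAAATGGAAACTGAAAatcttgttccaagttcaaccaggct
Ifit3: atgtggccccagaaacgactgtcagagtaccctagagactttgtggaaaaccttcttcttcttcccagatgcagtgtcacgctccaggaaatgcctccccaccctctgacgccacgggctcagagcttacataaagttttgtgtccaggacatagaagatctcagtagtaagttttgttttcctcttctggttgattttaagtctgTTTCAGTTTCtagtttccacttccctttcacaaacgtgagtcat
Irf7: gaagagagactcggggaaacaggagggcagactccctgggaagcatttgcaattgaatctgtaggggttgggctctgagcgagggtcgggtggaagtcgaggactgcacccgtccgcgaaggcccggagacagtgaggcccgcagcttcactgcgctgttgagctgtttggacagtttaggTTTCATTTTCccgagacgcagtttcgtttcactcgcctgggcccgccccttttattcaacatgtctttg
Bst2: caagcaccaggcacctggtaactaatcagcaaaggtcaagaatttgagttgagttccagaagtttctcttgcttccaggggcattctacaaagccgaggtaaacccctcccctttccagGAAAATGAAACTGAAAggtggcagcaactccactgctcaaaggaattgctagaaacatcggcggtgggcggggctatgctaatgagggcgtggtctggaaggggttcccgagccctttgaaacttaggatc
Rsad2: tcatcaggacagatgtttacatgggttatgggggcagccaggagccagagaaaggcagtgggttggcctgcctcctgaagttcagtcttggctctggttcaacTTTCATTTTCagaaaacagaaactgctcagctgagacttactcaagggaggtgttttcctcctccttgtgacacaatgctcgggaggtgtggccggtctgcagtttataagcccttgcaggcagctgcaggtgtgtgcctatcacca
In Oas1a and in Bst2 a pair of overlapping matches forms 1 longer run, which begins 41 bases before the start site in Oas1a and 131 bases before it in Bst2. Irf7 and Rsad2 hold the same 10 letters, 69 and 147 bases before their starts. The ISRE letters were in 15 of the 25 member windows (60%) and in 3.92% of all 33469 rat windows of this length. The GAS letters TTCNNNGAA were in 5 of the 25 member windows (20%) and in 8.87% of all windows, and 1 member window held matches to both that overlapped. A match is a run of letters, not a bound site, and windows without one, such as those of Mx1 and Herc6, only lack these letters over this length.

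Which members depended on 1 rat was asked first. A member was counted so when its highest rat stood at least 1 log2 CPM unit, that is 2-fold, above the second highest of the 9 rats. This held for 22 of the 36 members, and for all 22 the high rat was NE/Ovx rat 6. Over all tested genes the share was 1.03% for any rat and 0.455%, or 66 genes, for NE/Ovx rat 6, while each of the other 8 rats stood apart in this way for 9 to 12 genes. NE/Ovx rat 6 was the highest rat for 31 members, against 10.7% of all genes. Of the 66 genes, 22 were members, 16 more were on the lists of further interferon-stimulated or interferon-gamma-linked genes described below, and 28 were on neither. The members took 7 of the 10 and 11 of the 20 largest steps of that rat. Just inside the threshold were Dtx3l and Ifih1 with steps of 1.13 and 1.10, and just outside it Stat2 and Parp9 with steps of 0.96 and 0.81 on the log2 scale. The library of NE/Ovx rat 6 was not the deepest of the 9.

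**Figure D1:**
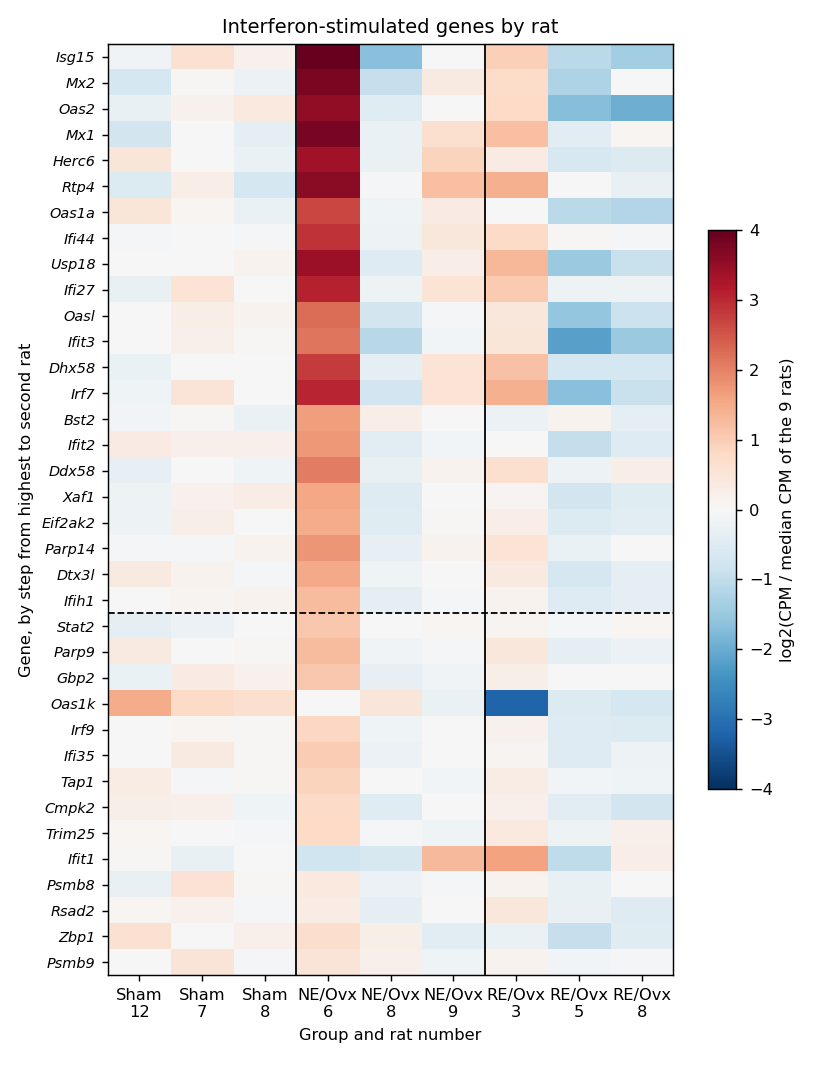
Level of the 36 members (rows, ordered by the step from the highest to the second highest rat) in each of the 9 rats (columns), as log2 of CPM over the median of the 9 rats. The 22 rows above the dashed line are high in NE/Ovx rat 6, and the pale Sham columns contrast with the blue columns of RE/Ovx rats 5 and 8.

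The ubiquitin-like system was the group with the largest steps, and all 3 of its members depended on NE/Ovx rat 6. Isg15, a ubiquitin-like protein that is coupled to other proteins, was at 3.17, 5.36 and 3.95 CPM in Sham rats 12, 7 and 8, at 63.2, 1.11 and 3.52 CPM in NE/Ovx rats 6, 8 and 9, and at 6.80, 1.68 and 1.35 CPM in RE/Ovx rats 3, 5 and 8. The high rat was 18.9-fold above the median of the other 8, and NE/Ovx rat 8, from the same group, was the lowest of all. Usp18, which removes Isg15 from proteins and blocks the type I receptor, was at 10.7, 10.9 and 12 CPM in Sham, 117, 7.68 and 13.3 CPM in NE/Ovx, and 27.6, 3.90 and 5.85 CPM in RE/Ovx rats in the same order. Herc6, the ligase that couples Isg15 in rodents, was at 47.7, 34.2 and 28.8 CPM in Sham, 352, 28.8 and 64.1 CPM in NE/Ovx, and 42.9, 21.9 and 23.3 CPM in RE/Ovx rats. In all 3 genes the Sham and NE/Ovx groups overlapped, since NE/Ovx rat 8 lay below at least 2 of the Sham rats.

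Of the 8 members that bind or degrade RNA, 6 depended on the same rat. Oas2, an oligoadenylate synthetase that activates RNase L, was at 8.75, 12.1 and 14.2 CPM in Sham, 127, 7.75 and 10.8 CPM in NE/Ovx, and 18.7, 3.29 and 2.76 CPM in RE/Ovx rats. Oas1a, of the same enzyme family, was at 12.4, 9.49 and 7.41 CPM in Sham, 57.3, 8.02 and 11.3 CPM in NE/Ovx, and 8.95, 4.28 and 3.98 CPM in RE/Ovx rats. In both genes NE/Ovx rat 6 stood alone, and RE/Ovx rats 5 and 8 were the lowest of the 9. Oasl, an OAS-like protein, reached 62.3 CPM in NE/Ovx rat 6 against 4.51 to 18.0 CPM in the others. Ifit3, which binds Ifit1 on viral RNA, reached 208 CPM against 10.5 to 66.1 CPM, and Ifit2, its neighbour on the chromosome, 178 CPM against 27.4 to 67.1 CPM. Eif2ak2 encodes PKR, the kinase that stops translation on double-stranded RNA, and was at 207 CPM against 50.7 to 88.7 CPM. The exceptions were Ifit1 and Oas1k, which are described below.

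Both Mx proteins, GTPases that trap viral nucleocapsids, stood high in that rat. Mx1 was at 8.91, 14.8 and 11.5 CPM in Sham, 203, 12.2 and 22.9 CPM in NE/Ovx, and 33.9, 11.1 and 15.5 CPM in RE/Ovx rats. Mx2 was at 6.91, 11.7 and 9.59 CPM in Sham, 155, 6.02 and 14.7 CPM in NE/Ovx, and 19.0, 4.81 and 11.4 CPM in RE/Ovx rats. The steps to the second rat, RE/Ovx rat 3 in both, were 5.98-fold and 8.10-fold. Gbp2, a guanylate-binding GTPase that answers more to interferon gamma, had 59.6 CPM in NE/Ovx rat 6 against 22.5 to 35.3 CPM elsewhere, a step of 1.68-fold that did not reach the threshold.

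Among the 4 RNA or DNA sensors, the 3 RIG-I-like receptors depended on NE/Ovx rat 6 and Zbp1, a sensor of Z-form nucleic acid, did not. Ddx58, which encodes RIG-I, was at 83.7 CPM in that rat against 16.2 to 31.8 CPM in the others. Ifih1, which encodes MDA5, was at 121 CPM against 35.7 to 56.1 CPM, and Dhx58, which encodes LGP2, at 59.9 CPM against 5.27 to 19.2 CPM. Of the transcription factors, Irf7, which amplifies type I interferon production, was at 55.6, 89.5 and 62.6 CPM in Sham, 514, 37.1 and 90.5 CPM in NE/Ovx, and 167, 19.5 and 33.7 CPM in RE/Ovx rats. Here too RE/Ovx rat 3 was second, and RE/Ovx rat 5 was lowest. Irf9, the DNA-binding subunit of the complex with STAT2, moved less, with 112, 118 and 117 CPM in Sham, 201, 98.6 and 110 CPM in NE/Ovx, and 127, 78.7 and 77.3 CPM in RE/Ovx rats.

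The remaining groups ran from strong steps to none. Rtp4, a chaperone of membrane receptors, was at 3.25, 5.64 and 2.90 CPM in Sham, 58.1, 4.63 and 10.9 CPM in NE/Ovx, and 12.6, 4.74 and 3.85 CPM in RE/Ovx rats. Ifi44 was at 19.3, 19.9 and 19.3 CPM in Sham, 147, 17.1 and 27.3 CPM in NE/Ovx, and 33.6, 20.5 and 19.0 CPM in RE/Ovx rats. Ifi27, a small membrane protein, was at 13.7, 24.6 and 17 CPM in Sham, 145, 14.8 and 25.0 CPM in NE/Ovx, and 34.9, 14.7 and 14.7 CPM in RE/Ovx rats. In these 3 genes NE/Ovx rat 6 was 4.14-fold to 4.58-fold above the second rat, which was RE/Ovx rat 3. Bst2 encodes tetherin, which holds budding virus at the cell surface, and was at 43.5 CPM against 10.7 to 16.3 CPM. Xaf1, which binds the caspase inhibitor XIAP, was at 39.4 CPM against 8.18 to 16.8 CPM.
The ADP-ribosyltransferase Parp14 was at 383 CPM in NE/Ovx rat 6 against 89.6 to 165 CPM in the others, and the ubiquitin ligase Dtx3l at 128 CPM against 28.0 to 58.2 CPM. Parp9, which works with Dtx3l and lies beside it, had a step of 1.75-fold, and Trim25, a ligase that activates RIG-I, one of 1.32-fold. None of the 3 antigen-processing genes passed: Tap1, which carries peptides into the endoplasmic reticulum, had 148 CPM against 70.6 to 99.0 CPM, while Psmb8 and Psmb9, subunits of the immunoproteasome, were highest in Sham rat 7. Ifi35 had a step of 1.56-fold and Cmpk2, a mitochondrial nucleotide kinase, one of 1.47-fold. Rsad2 encodes viperin, a radical enzyme that makes a chain-terminating nucleotide, and was the most abundant member per length with a median of 222 FPKM. It lay between 565 and 1104 CPM and was highest in RE/Ovx rat 3, by 1.11-fold over NE/Ovx rat 6. Rsad2 and Cmpk2 are neighbours on chromosome 6 and neither passed the threshold, while Ifit2 and Ifit3 on chromosome 1 and Dtx3l and Parp14 on chromosome 11 did.
Windows were at hand for 14 of the 22 members that depended on NE/Ovx rat 6 and for 11 of the 14 others. Isg15, Mx2 and Oas2, which had the largest steps, were without one. An ISRE match was in 11 of 14 windows (78.6%) of the former and 4 of 11 (36.4%) of the latter, with GAS matches in 3 of 14 and 2 of 11. The split uses levels of the rat on which the members were selected, so these shares are a description. Mx1, Herc6 and Oasl had large steps and no ISRE match in the window, and Rsad2 had a match and no step.

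**Figure D2:**
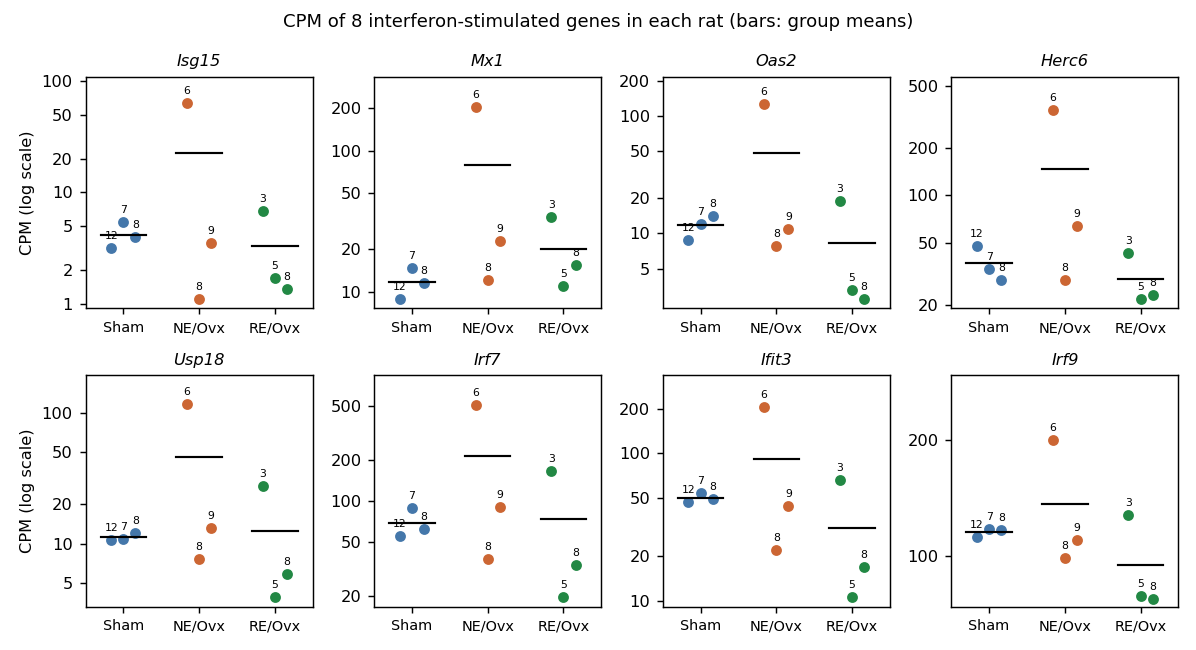
CPM (log axis) of 8 members in each rat, with rat numbers above the points and group means as bars. NE/Ovx rat 6 lies above every other rat in all 8 panels, from 201 CPM for Irf9 to 514 CPM for Irf7 among the transcription factors, and RE/Ovx rat 3 is the highest of its group.

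The question of what ovariectomy alone changed was addressed by NE/Ovx against Sham. Of the 36 members, 32 had a positive (50.4% of all genes) and 4 a negative log2 fold change, with a median of 0.62 (0.0029 over all tested genes), but 0 members were called in either direction. The share called over all genes was 1.03% higher and 0.200% lower, the smallest adjusted p of a member in edgeR was 0.13 for Rtp4, and DESeq2 also called 0. At an unadjusted p under 0.05, edgeR had 10 members higher and 0 lower (11.9% and 8.57% of all genes), of which 9 depended on NE/Ovx rat 6 by the step rule and the other was Stat2. The spread within the group was as large as the difference: Isg15 was at 22.6 ± 35.2 CPM (SD, n = 3) in NE/Ovx and 4.16 ± 1.11 CPM in Sham, with a log2 fold change of 2.42 ± 1.18 (SE; edgeR adjusted p = 0.281).
Without NE/Ovx rat 6 the members turned. Of the 36, 11 were then positive and 25 negative, the median was -0.16, and 0 had an unadjusted p under 0.05 in edgeR. The log2 fold change of Isg15 became -0.84, that of Oas2 went from 2.05 to -0.33 and that of Irf7 from 1.62 to -0.12, while that of Rtp4 went from 2.62 to 0.98 and that of Mx1 from 2.75 to 0.58. NE/Ovx rats 8 and 9 were both above every Sham rat for 1 member (18.8% of all genes) and both below every Sham rat for 8 members (14.8%).

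All 3 NE/Ovx rats lay on the same side of all Sham rats for 2 members, which were not called. Stat2, the STAT that is particular to interferon signalling, was at 78.6, 85.7 and 100.02 CPM in Sham, 212, 100.03 and 105 CPM in NE/Ovx, and 109, 96.7 and 105 CPM in RE/Ovx rats. The groups were kept apart by NE/Ovx rat 8 and Sham rat 8, which nearly coincided, and with median-of-ratios factors they overlapped. The log2 fold change was 0.66 ± 0.25 (SE; edgeR adjusted p = 0.178), and 0.22 without NE/Ovx rat 6. Oas1k, the other, was lower in NE/Ovx and is described with the exercise group. Groups that did not overlap made up 13.9% of all genes in the higher and 11.4% in the lower direction, against 1 of 36 members in each.

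Resistance exercise was compared with no exercise in RE/Ovx against NE/Ovx. Here 35 of 36 members had a negative log2 fold change (48.2% of all genes), the median was -0.88 (0.0079 over all tested genes), and 11 were lower at an unadjusted p under 0.05 in edgeR (3.57% of all genes), with 0 members called (0% of all genes) and a smallest adjusted p of 0.92. DESeq2 called 0 members as well. This comparison shares the NE/Ovx rats with the one before. Without NE/Ovx rat 6 the members split into 18 positive and 18 negative, the median was -0.00031 and 0 had an unadjusted p under 0.05. The log2 fold change of Herc6 went from -2.33 to -0.66, that of Oas2 from -2.55 to -0.17 and that of Isg15 from -2.77 to 0.49. The groups did not overlap for 1 member, Oas1k, which was lower in RE/Ovx (6.84% of all genes).

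**Figure D3:**
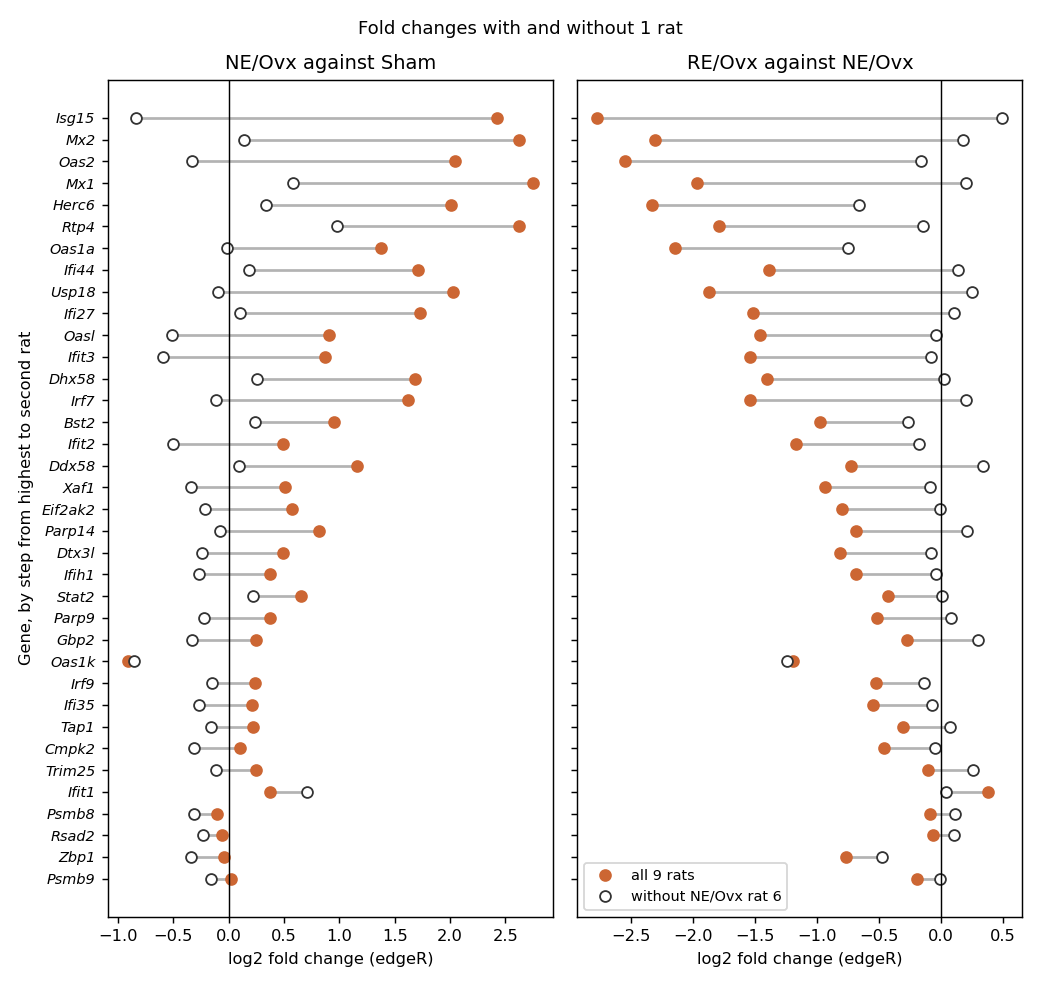
edgeR log2 fold changes of the 36 members with all 9 rats (filled) and without NE/Ovx rat 6 (open), for NE/Ovx against Sham and RE/Ovx against NE/Ovx. The medians are 0.62 and -0.88 with that rat and -0.16 and -0.00031 without it, and Oas1k hardly moves.

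RE/Ovx against Sham does not involve NE/Ovx rat 6 except through the shared estimate of the spread. Of the 36 members, 13 were positive and 23 negative (51.1% of all genes), with a median of -0.16 (-0.0078 over all tested genes), and 1, Oas1k, was called, as lower (3.06% of all genes, and 8.06% in either direction). At an unadjusted p under 0.05, edgeR had 2 members lower, Oas1k and Zbp1, and 0 higher (11.1% and 14.4% of all genes). All RE/Ovx rats lay below all Sham rats for 3 members, Oas1k, Zbp1 and Ifit2, and above them for 0 (13.0% and 14.9% of all genes).
Oas1k fell in RE/Ovx. This oligoadenylate synthetase, 1 of several Oas1 copies of rodents, was at 34.2, 21.0 and 19.4 CPM in Sham, 12.3, 17.2 and 10.3 CPM in NE/Ovx, and 1.35, 8.48 and 7.64 CPM in RE/Ovx rats. The 3 groups did not overlap at all, with Sham highest and RE/Ovx lowest, and RE/Ovx rat 3 had 20 reads against 111 and 119 in the other RE/Ovx rats. Against Sham its log2 fold change was -2.10 ± 0.50 in RE/Ovx (SE; edgeR adjusted p = 0.0337) and -0.91 ± 0.47 in NE/Ovx (adjusted p = 0.306), and it was -1.19 ± 0.50 between the 2 ovariectomized groups (adjusted p = 0.924). The call was lost without Sham rat 12, Sham rat 7, RE/Ovx rat 5 or RE/Ovx rat 8 (adjusted p from 0.0603 to 0.0882 in edgeR), the log2 fold change staying between -2.47 and -1.81. Its copies may share reads, so its count is uncertain. Oas1a had a log2 fold change of -0.76 in the same comparison (edgeR adjusted p = 0.534), and leaving out NE/Ovx rat 6 gave -0.77 (edgeR adjusted p = 0.199). Oas3, on the list of further genes, had one of -1.31 (adjusted p = 0.135).
Zbp1 was at 65.4, 43.1 and 49.6 CPM in Sham, 70.1, 50.9 and 32.5 CPM in NE/Ovx, and 36, 22.6 and 31.1 CPM in RE/Ovx rats. Only its RE/Ovx rats were all below Sham, with a log2 fold change of -0.81 ± 0.27 (SE; edgeR adjusted p = 0.0952), and DESeq2 called it (adjusted p = 0.0266). Ifit2 was at 67.1, 61.2 and 61.3 CPM in Sham, 178, 39.8 and 49.3 CPM in NE/Ovx, and 53.4, 27.4 and 37.2 CPM in RE/Ovx rats. Apart from NE/Ovx rat 6 every ovariectomized rat was below Sham in Ifit2, and its log2 fold change for RE/Ovx against Sham was -0.68 ± 0.49 (SE; edgeR adjusted p = 0.421). Leaving out NE/Ovx rat 6, which is in neither group but adds to the shared spread, gave -0.68 (edgeR adjusted p = 0.0827).

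**Figure D4:**
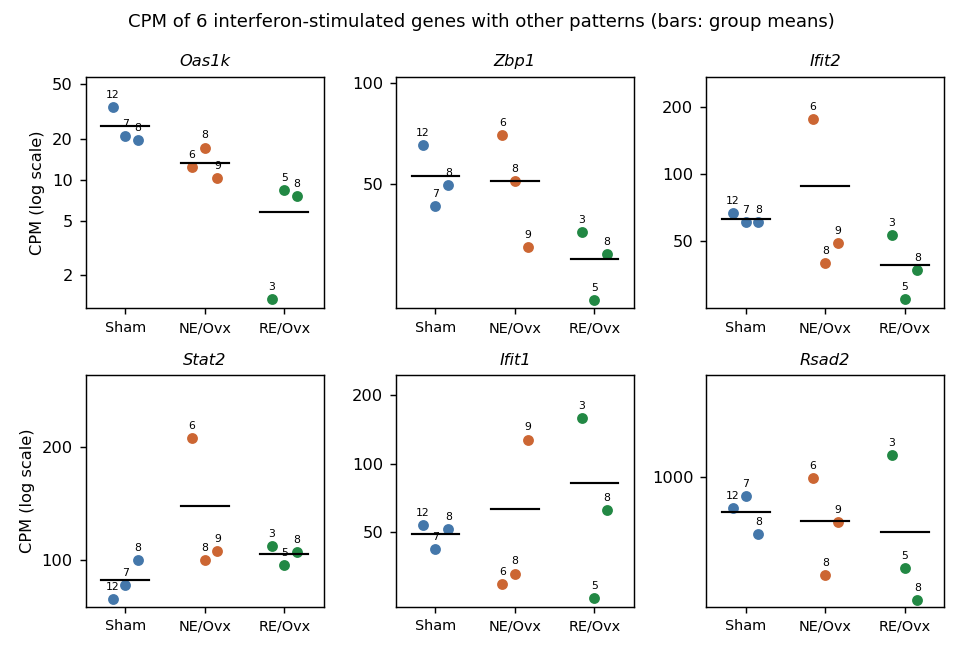
CPM (log axis) in each rat of 5 of the members that did not depend on NE/Ovx rat 6 by the step rule. Ifit2, which did and was also below Sham in RE/Ovx, is shown with them. Stat2 and Zbp1 were still highest in NE/Ovx rat 6. Bars are group means, and Oas1k steps down from Sham through NE/Ovx to RE/Ovx without overlap, at 24.9, 13.3 and 5.82 CPM on average.

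The RE/Ovx rats also differed among themselves. RE/Ovx rat 3 was the second highest rat for 15 of the 22 members that depended on NE/Ovx rat 6, and among the other 8 rats it was the highest for 21 of the 36 (6.69% of all genes). RE/Ovx rats 5 and 8 were the lowest of these 8 for 16 and 8 members (12.4% and 11.5% of all genes). Both lay below every Sham rat for 22 members (20.1% of all genes) and above every Sham rat for 0 (24.7%). The pair sets aside RE/Ovx rat 3, which was high for these same members, so these counts are a description. With all 3 RE/Ovx rats, 3 members lay below every Sham rat (13.0% of all genes). Without RE/Ovx rat 3, 29 of 36 members were negative for RE/Ovx against Sham, with a median of -0.52, and Oas1k was still the 1 member called. Irf7 moved most by this choice, from 0.09 to -1.38 on the log2 scale.
For most members the Sham rats lay closer together than the RE/Ovx rats, though their median range was near that of all genes. The range of log2 CPM was narrower in Sham than in RE/Ovx for 32 members (40.7% of all genes). The median range over the members was 0.37 log2 units in Sham, 0.95 in RE/Ovx and 2.07 in NE/Ovx, or 0.48 for NE/Ovx rats 8 and 9 alone, against 0.37, 0.30, 0.30 and 0.19 over all genes. Ifit3 shows the pattern, at 47.1, 53.7 and 48.7 CPM in Sham but 21.9 and 43.9 CPM in NE/Ovx rats 8 and 9, and 66.1, 10.5 and 16.8 CPM in RE/Ovx. Averaged over the 36 members, the centred log2 level was -0.14, 0.03 and -0.12 in Sham rats 12, 7 and 8, 1.70, -0.45 and 0.03 in NE/Ovx rats 6, 8 and 9, and 0.28, -0.76 and -0.56 in RE/Ovx rats 3, 5 and 8.
Ifit1, which binds viral RNA that lacks a host cap, went its own way. It was at 53.7, 42.1 and 51.8 CPM in Sham, 29.7, 32.9 and 128 CPM in NE/Ovx, and 159, 25.8 and 62.8 CPM in RE/Ovx rats. NE/Ovx rat 9 and RE/Ovx rat 3 were high, NE/Ovx rat 6 was the second lowest, and Ifit1 was the 1 member with a positive log2 fold change for RE/Ovx against NE/Ovx, 0.38 ± 0.65 (SE; edgeR adjusted p = 0.987). Without NE/Ovx rat 9 its log2 fold change for NE/Ovx against Sham went from 0.37 to -0.67.

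Other parts of the pathway were read from fixed lists. The interferons themselves were nearly absent: of 12 ligand genes, none passed the filter, Ifna5 and Ifng had 4 reads over the 9 rats, Ifna4 had 3, Ifne 2, Ifnk 1 and the other 7, Ifnb1 among them, 0. Of the 6 receptor chains 1, Ifngr1, a chain of the interferon gamma receptor, fell in RE/Ovx against Sham (log2 fold change -0.43 ± 0.09, SE; edgeR adjusted p = 0.0243). It was at 100.1, 95.3 and 91.5 CPM in Sham, 75.1, 88.1 and 83.7 CPM in NE/Ovx, and 71.9, 65.4 and 75.7 CPM in RE/Ovx rats. Ifnar1 lay between 213 and 259 CPM and Ifnar2 between 61.4 and 107 CPM. NE/Ovx rat 6 held the lowest value of both, but only just. Ifnar1 was at 212.6 CPM there and 212.8 CPM in RE/Ovx rat 8, and Ifnar2 at 61.4 CPM there and 62.8 CPM in NE/Ovx rat 9. Ifngr2 lay between 35.8 and 47.2 CPM, Il10rb between 32.0 and 40.7 CPM and Ifnlr1, of the lambda receptor, between 1.69 and 3.67 CPM.
Of the 8 genes that carry the signal from the receptors, Jak2 fell in RE/Ovx against Sham (log2 fold change -0.32, adjusted p = 0.0368 in edgeR). In NE/Ovx against Sham it was lower by a similar amount but not called (-0.36, adjusted p = 0.0579 in edgeR). Of 14 genes that induce interferon, Sting1, which answers to DNA in the cytosol, and Tlr9, a receptor for bacterial DNA, rose in RE/Ovx against Sham, by 0.63 and 0.82 on the log2 scale (adjusted p = 0.0302 and 0.0404 in edgeR). Of 7 inhibitors none was called, and Socs1 was at 8.0 CPM in NE/Ovx rat 6 against 2.27 to 4.91 CPM.
Of 48 further interferon-stimulated genes tested, 12 depended on NE/Ovx rat 6, and 1, Plscr1, a lipid scramblase, was called, lower in RE/Ovx against Sham (log2 fold change -0.75, adjusted p = 0.0146 in edgeR). Their medians were 0.37 in NE/Ovx and -0.074 in RE/Ovx, both against Sham, and -0.44 for RE/Ovx against NE/Ovx, and the first was -0.071 without NE/Ovx rat 6. Ddx60, a helicase, reached 246 CPM in that rat against 18.6 to 45.3 CPM, and Ifi44l 42.1 CPM against 3.67 to 8.81 CPM. Of 23 interferon-gamma-linked genes, 4 depended on NE/Ovx rat 6 and none was called, with Gbp1 at 8.0 CPM against 0.553 to 2.06 CPM and Irgm, an immunity-related GTPase, at 34.4 CPM against 6.78 to 10.5 CPM. Of 17 genes of NF-kB inflammation, Birc3, an inhibitor of apoptosis, rose and Sod2, a mitochondrial superoxide dismutase, fell in RE/Ovx against Sham (adjusted p = 0.0388 and 0.0357 in edgeR), and the level of this list in NE/Ovx rat 6 was 0.0943, within the range of the other rats.

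**Figure D5:**
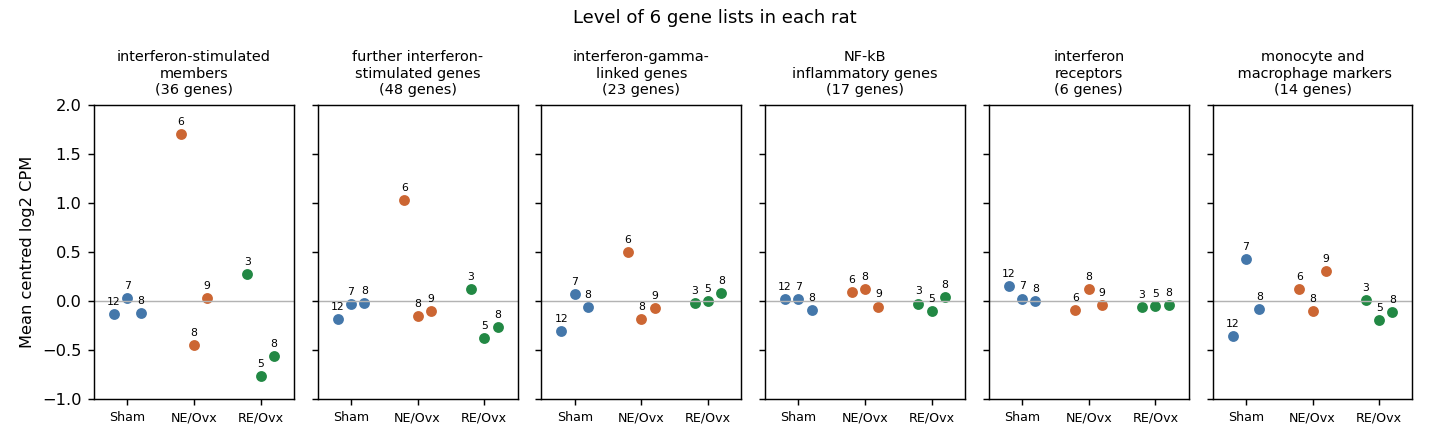
Mean centred log2 CPM of 6 gene lists in each rat, with rat numbers above the points. NE/Ovx rat 6 is at 1.70 for the members, 1.03 for the further interferon-stimulated genes and 0.50 for the gamma-linked genes, each the highest of the 9. It is within the other rats for NF-kB genes and macrophage markers. For the receptors it is the lowest, at -0.093 against -0.062 in RE/Ovx rat 3.

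Markers of other cells were read beside these patterns. In NE/Ovx rat 6 the levels of monocyte and macrophage, neutrophil, plasmacytoid dendritic cell, erythroid and megakaryocyte markers were within the range of the other rats. For adipocyte and osteoblast markers it was the lowest of the 6 ovariectomized rats (adipocyte level 0.23 against 0.45 to 1.08, osteoblast level -0.34 against 0.059 to 0.38). All Sham rats were lower still for adipocyte markers, but only Sham rat 12 (-0.80) was for osteoblast markers. B cell markers were highest in NE/Ovx rat 6 (0.78 against 0.70 in the next rat), T and NK cell markers lowest (-0.53), and skeletal muscle markers second highest (0.58). Of the defining markers of plasmacytoid dendritic cells, a main source of type I interferon, Siglech had 128 reads over the 9 rats and Ly6d 0, but others were abundant. Spib, a transcription factor that B cells use too, was highest in NE/Ovx rat 6 at 288 CPM against 28.0 to 216 CPM. Tlr7, a receptor for single-stranded RNA, was also highest there at 85.6 CPM against 37.5 to 72.7 CPM. The summed level of this list, Spib included, was 654 CPM in that rat against 325 to 578 CPM in the others. The mean centred log2 level of the list was 0.069 in NE/Ovx rat 6, rank 4 of the 9 rats. Tlr9, also on the list, was at 16.4 CPM there against 21.3 CPM in RE/Ovx rat 8. Beside the low values of RE/Ovx rats 5 and 8, neutrophil markers had 7 of 13 genes lower and 0 higher in RE/Ovx against Sham and a level of 0.12 to 0.67 in Sham, -0.68 in RE/Ovx rat 5, -0.11 in RE/Ovx rat 8 and -0.24 in RE/Ovx rat 3. Monocyte and macrophage markers had 2 of 14 lower, with summed levels of 4786 to 7245 CPM in Sham, 4057 to 4847 CPM in NE/Ovx and 3086 to 3624 CPM in RE/Ovx. By mean centred log2 level these groups overlapped, at -0.36, 0.42 and -0.08 in Sham rats 12, 7 and 8 and 0.01, -0.19 and -0.11 in RE/Ovx rats 3, 5 and 8. Adipocyte markers had 10 of 10 higher. The part of these cells in the members' levels was not tested.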

How the data were processed

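RNA-seq libraries of 9 left tibias (3 Sham, 3 NE/Ovx and 3 RE/Ovx) were used as deposited. Groups and rat numbers were taken from the sample titles. For each rat the authors deposited 1 file of raw read counts and 1 file of FPKM values (the count per gene length and depth) for 22589 genes. Ribosomal RNA was removed before library synthesis with a strand-keeping kit. In the submitters' processing notes, HISAT2, Bowtie2, StringTie, Trimmomatic and DESeq are named with the build Rnor_6.0 and no versions. Use of the strand in counting, and of reads shared by gene copies, was not given in the sources used here. In the paper, DESeq2 tests used unadjusted p-values and a fold threshold.

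A single edgeR 4.0.16 fit (R 4.3.3, filterByExpr, TMM, quasi-likelihood test) took the counts of the 9 rats with no covariate besides the group, and p-values were adjusted by Benjamini-Hochberg over all 14520 tested genes. CPM are counts over effective library sizes, and log2 CPM uses a prior count of 2. On simulated counts the fit recovered 76%, 70% and 63% of 2-fold changes for NE/Ovx against Sham (14419 genes), RE/Ovx against Sham (14416 genes) and RE/Ovx against NE/Ovx (14401 genes). The changed genes were drawn at random from all tested genes. These rates therefore do not describe members with a wide spread, such as Isg15 (SE of 1.18 log2 units in NE/Ovx against Sham). Totals of 12297992 to 16671533 reads set the precision of low genes. Each library is a separate rat per the labels, and no pair within a group held the same values.

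The members and all lists were chosen with earlier results of these data known. Values in all rats are given for the 10 members with the largest step, every member whose NE/Ovx or RE/Ovx rats all lie on one side of Sham, and Isg15, Mx1, Irf7, Stat2 and Irf9. From each pathway list the called genes are named (up to 4, or 2 where none was called), with ligands and receptors. Outside the lists the 10 genes with the largest excess in NE/Ovx rat 6 and the 5 most like the members' mean are named. Other members, Socs1, Ddx60, Ifi44l, Gbp1, Irgm, RT1-Ba, RT1-Bb, RT1-Da, Oas3, Spib, Tlr7, Siglech and Ly6d were chosen after their values were seen. A result on 1 pathway gene is not reported here. Alternatives were DESeq2 1.42.0, which gave no p for Oas2, median-of-ratios factors, library totals, other filters, edgeR on 2 groups, limma 3.58.1 with a trend on log2(FPKM + 1) or log2(FPKM + 0.1) with or without an FPKM of at least 1, steps of 1.5-fold and 3-fold, and each rat left out in turn. Lists of further interferon-stimulated genes were run through the same settings after the data were seen. Promoters are from a RefSeq table of GRCr8, matched by gene. Levels, steps and plots were computed in Python 3.11.15 (pandas 2.3.3, numpy 2.4.6, matplotlib 3.10.9).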

Additional observations from a re-analysis of the deposited data

How the results depend on the processing

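No paired analysis was possible because the groups compared share only 1 rat number, 8, and the labels do not say that it marks a shared batch or animal. The numbers of genes called moved most. For NE/Ovx against Sham they were 998 with DESeq2 and 112 with limma on log2(FPKM + 1), for RE/Ovx against Sham 1954 with DESeq2 and 559 with edgeR on the 2 groups, and for RE/Ovx against NE/Ovx 5 and 1. With rats left out in turn, they were 9 (NE/Ovx rat 8 left out) to 458 (RE/Ovx rat 3 left out), 103 (without RE/Ovx rat 5 or rat 8) to 1749 (without RE/Ovx rat 3), and 0 to 1.

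Among the members, 0 were called for NE/Ovx against Sham and for RE/Ovx against NE/Ovx under any of the 18 alternatives. For RE/Ovx against Sham, DESeq2 called 2 (Oas1k and Zbp1), edgeR on the 2 groups called 0 (adjusted p = 0.0593 for Oas1k), and with rats left out 0 to 1 were called. The members' median log2 fold change ran from -0.16 (without NE/Ovx rat 6) to 0.88 for NE/Ovx against Sham, from -0.52 (without RE/Ovx rat 3) to -0.018 for RE/Ovx against Sham, and from -1.12 to -0.00031 (without NE/Ovx rat 6) for RE/Ovx against NE/Ovx. With rats left out, the members whose groups did not overlap numbered 2 to 13 for NE/Ovx against Sham, 4 to 22 for RE/Ovx against Sham and 1 to 16 for RE/Ovx against NE/Ovx. Groups of 2 overlap less over all genes as well: the 13 members (36.1%, without NE/Ovx rat 8) stood beside 32.2% of all genes, the 22 (61.1%, without RE/Ovx rat 3) beside 44.8% and the 16 (44.4%, without RE/Ovx rat 3) beside 27.6%. With median-of-ratios factors the number was 1 for NE/Ovx against Sham. The members that depend on a single high rat numbered 14 with a 3-fold step, 28 with a 1.5-fold step (among them Oas1k, high in Sham rat 12), and 1, Usp18 in RE/Ovx rat 3, without NE/Ovx rat 6 to 24 without RE/Ovx rat 3. For single members, 56 of the 60 log2 fold changes that moved by more than the spread between rats did so without NE/Ovx rat 6. The causes were not tested.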

Other observations

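Genes outside the lists that stood highest in NE/Ovx rat 6 over the second rat were, in order, RT1-T24-3, a class I histocompatibility gene, at 253 CPM against 14.1 to 54.2 CPM in the others, LOC100911190 with a step of 4.46-fold, LOC100912658 with 3.88-fold, and Rnf213, a large ubiquitin ligase, at 1535 CPM against 235 to 402 CPM. Siglec1, a sialic acid receptor of macrophages, was at 63.7 CPM against 6.55 to 17.8 CPM, and RGD1563091 at 441 CPM against 40.1 to 134 CPM. LOC100911537, LOC102556096, Miip and Fbxo39 had steps of 2.96-fold to 3.43-fold, LOC100911537, Miip and Fbxo39 at low levels of at most 7.20 CPM. Over the 9 rats, Pml, Siglec1, RGD1563091, Trim21 and Samhd1 had log2 levels most like the mean of the members (Pearson r from 0.98 to 0.99, a description that rests largely on NE/Ovx rat 6). Histocompatibility genes have near-identical copies, so their counts are uncertain. Of the class II genes, RT1-Ba was at 5.65 CPM in NE/Ovx rat 6 and at 23.2 to 93.0 CPM in the others, the opposite of the members. RT1-Bb was also lowest in that rat, at 8.81 CPM against 20.3 to 66.4 CPM. RT1-Da did not follow, at 65.6 CPM there and 55.6 to 116 CPM in the others.

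Among the marker lists of other cells, fixed with earlier results known, adipocyte genes had 5 of 10 called higher (1.03% of all genes) in NE/Ovx against Sham, such as Plin1, which coats lipid droplets (log2 fold change 2.97, edgeR adjusted p = 0.00387). Osteoblast and osteocyte genes had 2 of 11 higher in both comparisons with Sham, Col1a1 and Bglap, which encode collagen and osteocalcin of the bone matrix, by 1.70 and 1.72 in NE/Ovx and by 1.74 and 1.89 in RE/Ovx on the log2 scale. B cell genes had 3 of 10 higher in RE/Ovx against Sham, Blnk, Ebf1 and Cd22, by 0.94 to 1.46. Megakaryocyte genes had 3 of 9 lower there, Itga2b, Gp6 and Treml1, by -0.63 to -0.41, and T and NK cell genes 1 of 14, Nkg7. Plasmacytoid dendritic cell genes had 2 of 11 higher, Tcf4 and Tlr9, and erythroid and skeletal muscle genes had 0 called in edgeR.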
